A study of Mus musculus with 4 samples.

Results

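The loss of ribosomal protein S6 was followed in mouse liver that overproduced c-Myc, by setting the array of ΔS6:c-Myc liver against the array of Alb-c-Myc liver. Both mouse lines carried a c-Myc transgene driven by the albumin promoter, which is active in hepatocytes. The ΔS6:c-Myc mice also carried floxed Rps6 alleles and albumin-driven Cre, which acts from the hepatoblast of the fetal liver, so the deletion is directed to both lineages that arise from it, hepatocytes and bile duct cells. The other 2 arrays of the series held WT liver and ΔS6 liver, the latter with the deletion and no transgene. All mice were of a mixed hybrid background, 5 weeks old and, per the labels, non-fasted males. Each of the 4 arrays received equal amounts of liver RNA from 3 mice, so each genotype has 1 pooled value, no replicate and no test. Of 18194 genes with a probe set of their own, 14065 entered the comparison because their log2 value was 6 or more on at least 1 of the 2 Myc transgenic arrays. All levels below are log2 expression values and all ratios are differences of such values, ΔS6:c-Myc minus Alb-c-Myc unless stated.

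S6 is a protein of the small ribosomal subunit, and its gene is needed to assemble that subunit. When ribosome assembly is impaired, free ribosomal proteins of the large subunit bind Mdm2, the ubiquitin ligase that keeps p53 low, and p53 can then activate genes of cell cycle arrest, cell death and DNA repair. c-Myc is a transcription factor that drives ribosome production and growth, and it is often overproduced in liver cancer.

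For 3 genes whose ratios are described below, the RefSeq promoter stretch is shown to place a sequence motif beside the value. Each stretch is the 250 bases before an annotated transcription start, 5′ to 3′ on the gene's strand in build GRCm38.p6. In Cdkn1a, which was among the most raised p53 targets, capitals mark stretches that match every letter of the p53 half-site consensus. The first begins 73 bases and the second 51 bases before the start. The second is followed without a gap by the letters tgacatgttc, which miss that consensus only in their first letter and so are not marked. Which of these stretches p53 binds as a pair was not tested. In Atf3 and Chac1, which lay on opposite sides, capitals mark TTGCATCA, the reverse complement of TGATGCAA, a composite C/EBP and Atf4 element of stress-responsive promoters.
Cdkn1a (chr17:29090729-29090978, + strand): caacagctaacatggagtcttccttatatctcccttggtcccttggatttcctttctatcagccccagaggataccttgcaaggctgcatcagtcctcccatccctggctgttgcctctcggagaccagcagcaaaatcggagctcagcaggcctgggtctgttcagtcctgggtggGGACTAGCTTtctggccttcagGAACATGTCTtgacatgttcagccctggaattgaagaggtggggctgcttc
Atf3 (chr1:191183334-191183583, - strand): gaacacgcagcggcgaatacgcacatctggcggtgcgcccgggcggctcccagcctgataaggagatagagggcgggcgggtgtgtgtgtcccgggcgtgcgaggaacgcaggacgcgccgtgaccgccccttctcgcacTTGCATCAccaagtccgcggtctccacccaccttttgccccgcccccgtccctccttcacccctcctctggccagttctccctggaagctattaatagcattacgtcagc
Chac1 (chr2:119350992-119351241, + strand): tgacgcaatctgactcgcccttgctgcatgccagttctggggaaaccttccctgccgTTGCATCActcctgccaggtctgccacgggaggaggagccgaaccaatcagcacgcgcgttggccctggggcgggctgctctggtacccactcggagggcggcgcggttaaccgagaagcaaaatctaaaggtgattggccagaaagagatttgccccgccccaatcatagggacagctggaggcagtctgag
Across all 32851 RefSeq windows of 300 bases (250 before and 50 after a start), a pair of p53 half-sites 0 to 13 bases apart on either strand occurred in 24 windows, or 0.0731%. Counted by gene, 6 of 11287 passing genes with a window held it (0.0532%). Among the genes at least 2-fold higher with a window, 2 of 290 held it, Cdkn1a and Itm2a, and 0 of 188 lower ones did. TGATGCAA, searched on both strands, occurred in 0.895% of all windows and, by gene, in 91 of 11287 passing genes (0.806%). It occurred in 7 of 290 higher genes (2.41%) and in 7 of 188 lower genes (3.72%). A match describes the letters and does not show a site in use, and the Cdkn1a match lies at 1 of its 2 annotated starts.

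The WT pool had Xist, the transcript that marks female cells, at 11.84, against 5.88 in ΔS6, which goes against its label as male. It also held transcripts of exocrine pancreas that were low on the other arrays, and 14 of 16 pancreatic markers were at least 2-fold lower in ΔS6 minus WT (median -2.17), against 0 of 16 between the transgenic arrays (median -0.36). Every ΔS6 minus WT ratio given beside the results rests on that single WT pool and could not be repeated without it.

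The deleted gene was examined first. Of the 11 probe sets annotated to Rps6, 9 are shared with the pseudogene Rps6-ps4, and all 9 were lower in ΔS6:c-Myc, with a median ratio of -1.76 (3.39-fold) and a range from -2.37 to -1.25. Their levels ran from 5.55 to 14.81 on the Alb-c-Myc array and from 4.30 to 13.17 on the ΔS6:c-Myc array. The probe sets annotated to Rps6 alone disagreed. The first went from 8.13 to 5.64 (ratio -2.48), and the second, which is the brighter of the pair on average and so stands for the gene in the counts below, went from 5.65 to 8.25 (ratio 2.59). The position of these probe sets against the floxed part of the gene was not worked out. In bulk RNA, fewer cells of a type and less RNA per cell cannot be told apart. Between ΔS6 and WT, without the transgene, the 9 shared probe sets had a median ratio of only -0.29. The paper that reported these mice describes recombination of Rps6 as incomplete, and as more extensive in ΔS6:c-Myc than in ΔS6 liver. Myc, which the transgene encodes, measured 11.68 with Rps6 intact and 11.37 with it deleted, a ratio of -0.31.

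Next to Rps6 on its chromosome, a second gene was low. Dennd4c, which encodes a regulator of Rab GTPases, directly precedes Rps6 in the RefSeq gene order. It went from 9.27 to 6.66, a ratio of -2.61, which was rank 11 among the lowest ratios of all genes. Its single probe set was also lower in ΔS6 than in WT, by a smaller amount (-1.06). Of the 15 genes with a value that passed among the 10 protein-coding neighbours on each side, Dennd4c was the 1 past 2-fold. The other 14 had ratios from -0.41 to 0.76, with the lipid droplet gene Plin2 at the top and the ceramidase gene Acer2, on the other side of Rps6, at the bottom.

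**Figure D1:**
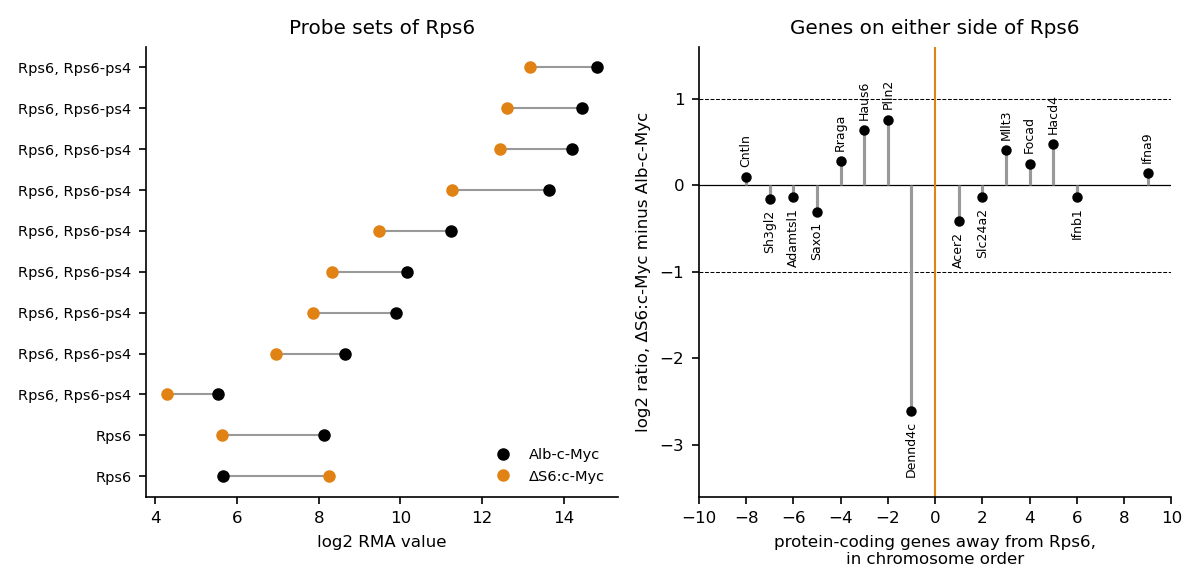
Left, log2 RMA value of the 11 probe sets annotated to Rps6 on the Alb-c-Myc array (black) and the ΔS6:c-Myc array (orange), 1 line per probe set. Right, log2 ratio of the passing neighbours by their position in gene order from Rps6 (orange line), with dashed lines at 2-fold; the 9 shared probe sets are all lower in ΔS6:c-Myc, and Dennd4c at -2.61 stands apart from the other 14 neighbours.

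Most genes lay close to equal levels. The median ratio of the 14065 genes was 0.004 with an SD of 0.47, and 95.7% of them were within 2-fold. Of all genes, 360 (2.56%) were at least 2-fold higher in ΔS6:c-Myc and 245 (1.74%) were at least 2-fold lower. Each list count below is to be read beside these shares, and in a short list a few genes make a large share. At 4-fold the counts were 52 and 28, and at 8-fold 15 and 9. These counts describe 2 pools and come with no measure of their error. The spread between probe sets of 1 gene was an SD of 0.24 for the ratio (3379 genes with 8477 probe sets of a log2 value of 8 or more). That spread compares probe sets on the same 2 arrays and holds no variation between mice, pools or arrays. Of the 194 higher genes that have other probe sets, 140 had all of them above 0 and 98 had another past 2-fold, and of the 115 such lower genes 98 had all below 0 and 58 had another past 2-fold. Among the named genes past 2-fold, 15 had another probe set of the opposite sign, namely Acacb, Ak1, Anxa2, Arntl, Ddx27, Hamp2, Ighm, Lyz1, Masp1, Mcm3, Mdm2, Rps6, Socs2, Sox4 and Sulf2. Some of the genes reached the filter on 1 array only, 177 on the ΔS6:c-Myc array and 225 on the Alb-c-Myc array, and 24 of the higher and 5 of the lower genes were below 6 on the other array. At the edge of the filter, Mdrl with a higher value of 5.9987 stayed out and Pifo with 6.0001 went in.

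**Figure D2:**
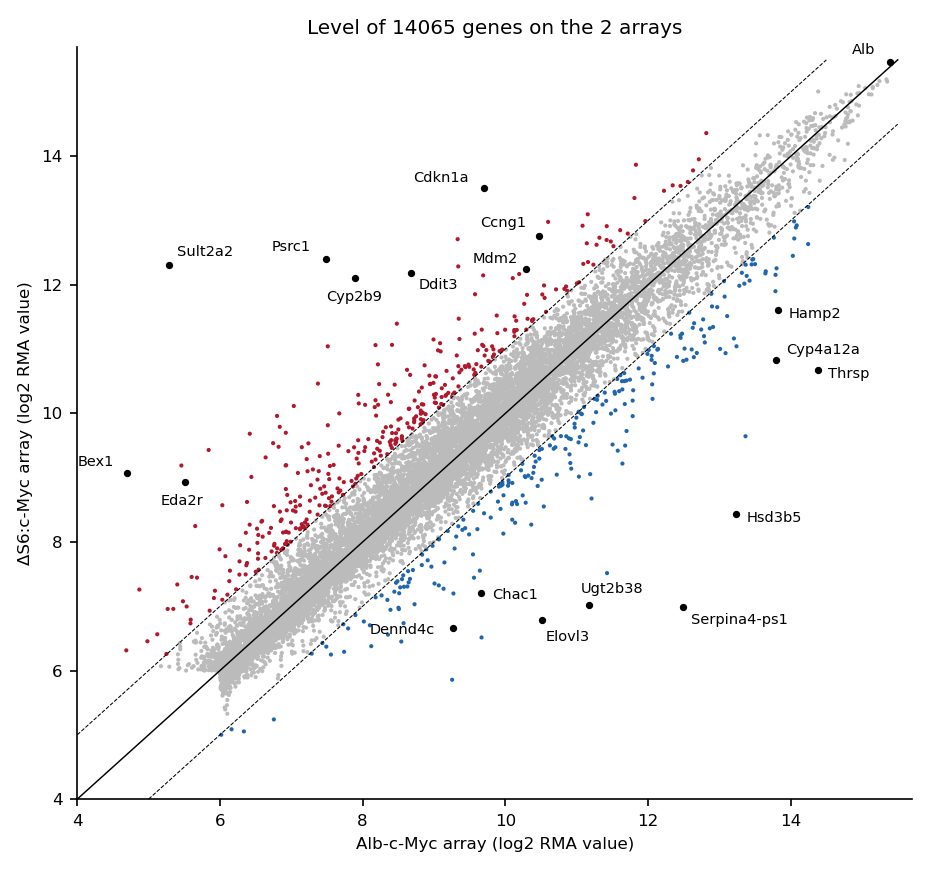
Log2 RMA value of each of 14065 genes on the Alb-c-Myc array (horizontal axis) and the ΔS6:c-Myc array (vertical axis), with equal levels as the solid line and 2-fold as dashed lines; red marks 360 higher and blue 245 lower genes, and black marks labelled genes. Sult2a2, at 5.28 and 12.31, lies farthest above the line, and Serpina4-ps1, at 12.48 and 6.99, farthest below it.

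The genes with the largest ratios combined p53 targets, sex-biased liver enzymes, fetal genes and stress factors. The highest was Sult2a2, a sulfotransferase for steroids and bile acids, which went from 5.28 to 12.31 (ratio 7.03, or 131-fold), with the Alb-c-Myc value below 6. Next came Psrc1, a microtubule-binding p53 target (from 7.49 to 12.40, ratio 4.91), and Bex1, a gene active in fetal tissue (from 4.70 to 9.08, ratio 4.38). The remaining 12 of the 15 highest were Cyp2b9 (4.22), Cdkn1a (3.80), the basement membrane gene Tinag (3.73), Prom1 (3.59), Ly6d (3.53), Ddit3 (3.51), Eda2r (3.42), the tubulin gene Tubb2a (3.38), Ddit4l (3.27), Slc22a29 (3.16), Sox4 (3.09) and Cyp2c55 (3.08). The sizes of 3 of these rest on the probe set chosen, since the probe sets ran from 0.22 to 4.91 for Psrc1, from 0.35 to 3.51 for Ddit3 and from -0.15 to 3.09 for Sox4.

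The lowest genes were mostly hepatocyte enzymes and secreted proteins. Serpina4-ps1, a serpin pseudogene transcribed in male liver, went from 12.48 to 6.99 (log2 ratio -5.49), and Hsd3b5, a steroid dehydrogenase of adult male liver, went from 13.23 to 8.43 (log2 ratio -4.80). The glucuronosyltransferase Ugt2b38 had a ratio of -4.16, the adipokine Serpina12 of -3.91, the elongase Elovl3 of -3.72, the thyroid hormone deiodinase Dio1 of -3.72 and Thrsp, a factor of lipid synthesis, of -3.70. The remaining 8 of the 15 lowest were the cartilage factor Cnmd (-3.40), the melanin enzyme Dct (-3.15), Cyp4a12a (-2.97), Dennd4c, Cyp2d13 (-2.53), Chac1 (-2.46), the heat shock gene Hspa1b (-2.42) and Hamp2 (-2.21). The probe sets ran from -3.91 to -0.54 for Serpina12 and from -4.05 to -0.23 for Thrsp.

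Many p53 targets were higher. Of 20 passing targets of arrest and feedback, 12 were past 2-fold on the higher side and 2 on the lower side, with a median ratio of 1.11 beside 0.004 over all genes. Cdkn1a, the p21 inhibitor of cyclin-dependent kinases, went from 9.70 to 13.50, a ratio of 3.80. Mdm2, which feeds back on p53, went from 10.30 to 12.25 (ratio 1.95), although its 3 probe sets ran from -0.0017 to 2.37. The cyclin Ccng1 had a ratio of 2.30, the antiproliferative factor Btg2 of 2.13, the RNA-binding protein gene Zmat3 of 2.06, the kinase Plk2 of 1.93 and the growth arrest gene Gadd45a of 1.47. The lower ones were Gadd45g (from 10.48 to 9.30, ratio -1.18), a relative of Gadd45a, and the kinase Plk3 (from 10.04 to 9.04).

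Targets of cell death were higher in part. Of 15 passing, 5 were past 2-fold on the higher side and 0 on the lower side, and the list median was 0.40. They were the death receptor Eda2r (from 5.51 to 8.93), the Akt repressor Phlda3 (from 8.48 to 11.40), the nuclease Aen (from 10.10 to 12.10), the apoptosis gene Siva1 (ratio 1.54) and the apoptosome gene Apaf1 (1.22). The death receptors Fas (0.86) and Tnfrsf10b (0.69) had smaller ratios, and the Bcl2 family trigger Bbc3 (8.74 and 8.92) and the membrane protein gene Perp (10.97 and 11.08) were nearly level. Over the Bcl2 family as a list, 0 of 16 were 2-fold higher and 1, the trigger Bmf (-1.01), was lower.

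Among targets of repair, metabolism and secretion, 6 of 23 were past 2-fold on the higher side and 0 on the lower side, and the list median was 0.38. They were the mTOR inhibitor Ddit4l (from 6.42 to 9.68), the translesion polymerase Polk (from 8.36 to 10.29), the autophagy gene Dram1 (1.83), the adenylate kinase Ak1 (1.45), the sulfatase Sulf2 (1.44) and Cgref1 (1.15). Across the 3 p53 lists together, 23 of 58 were past 2-fold on the higher side and 2 on the lower side. Over the 58 genes together the median was 0.52 in ΔS6 minus WT, beside 0.53 with the transgene, and Psrc1 had 5.49 and Cdkn1a 3.68 there. The separate lists were less alike. Without and with the transgene, the medians were 0.80 and 1.11 for arrest and feedback, 0.27 and 0.40 for cell death and 0.42 and 0.38 for the third list. Single targets differed in either direction, as Dram1 (3.30 without and 1.83 with) and Eda2r (2.46 and 3.42).

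Around the cell cycle, 3 of 12 CDK inhibitors and D-type cyclins and 0 of 47 mitotic genes were past 2-fold. The 3 were Cdkn1a, the inhibitor Cdkn2b (1.07) and Ccnd1 (from 9.69 to 12.15, ratio 2.46), a cyclin that drives entry into the cycle, all on the higher side, and the median of the 12 was 0.38 with a lowest ratio of -0.37. Of 47 genes of mitosis and cell division, 0 were 2-fold higher and 0 lower, with a median of 0.12. Top2a measured 6.11 in WT, 8.78 in ΔS6, 7.45 in Alb-c-Myc liver and 7.91 in ΔS6:c-Myc liver, and Ccnb2 measured 6.61, 9.55, 8.68 and 8.31. The summed level of the mitotic list was 13.68 in WT, 14.78 in ΔS6, 14.22 in Alb-c-Myc liver and 14.26 in ΔS6:c-Myc liver, so both transgenic arrays lay above WT and below ΔS6. In ΔS6 minus WT the same list had 32 of 47 past 2-fold on the higher side and a median of 1.47. Of 51 genes of DNA replication, 2 were higher and 2 lower, or 3.92% each way. Those shares are not far from the 2.56% and 1.74% of all genes. The higher ones were the clamp loader gene Rfc3 (from 7.59 to 9.20) and the helicase gene Mcm3 (1.11). The lower ones were Tk1 (-1.29) and Mcm10 (-1.24, with another probe set at -0.02).

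mRNAs of the other ribosomal proteins that could be measured were slightly higher. Of 32 small subunit and 47 large subunit genes listed, 22 and 22 had a probe set annotated to them alone. The rest of the family was not measured here. Leaving out Rps6, 38 of 42 passing ribosomal protein genes had a ratio above 0, with a median of 0.27 beside 0.004 over all genes. Their range was from -0.25 to 0.72, and 0 were past 2-fold in either direction. Rps19 had 0.70, Rpsa 0.69, Rpl14 0.72 and Rpl41 0.62, while Rpl11, which binds Mdm2, had 0.34. Of 114 genes of ribosome biogenesis, RNA polymerase I and the nucleolus, 88 were above 0 with a median of 0.28. At least 2-fold higher were 4 of them, a share not far from the 2.56% of all genes. They were the anti-association factor Eif6 (from 11.42 to 12.70), the helicases Ddx56 (1.08) and Ddx27 (1.04) and the snoRNP protein gene Nhp2 (from 11.61 to 12.85). The probe sets ran from 0.17 to 1.28 for Eif6 and from -0.14 to 1.04 for Ddx27. Of 39 translation factors 0 were past 2-fold, with Eif5 (from 12.75 to 13.70) at the top and Eif4a2 (from 13.32 to 12.32) at the bottom.

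**Figure D3:**
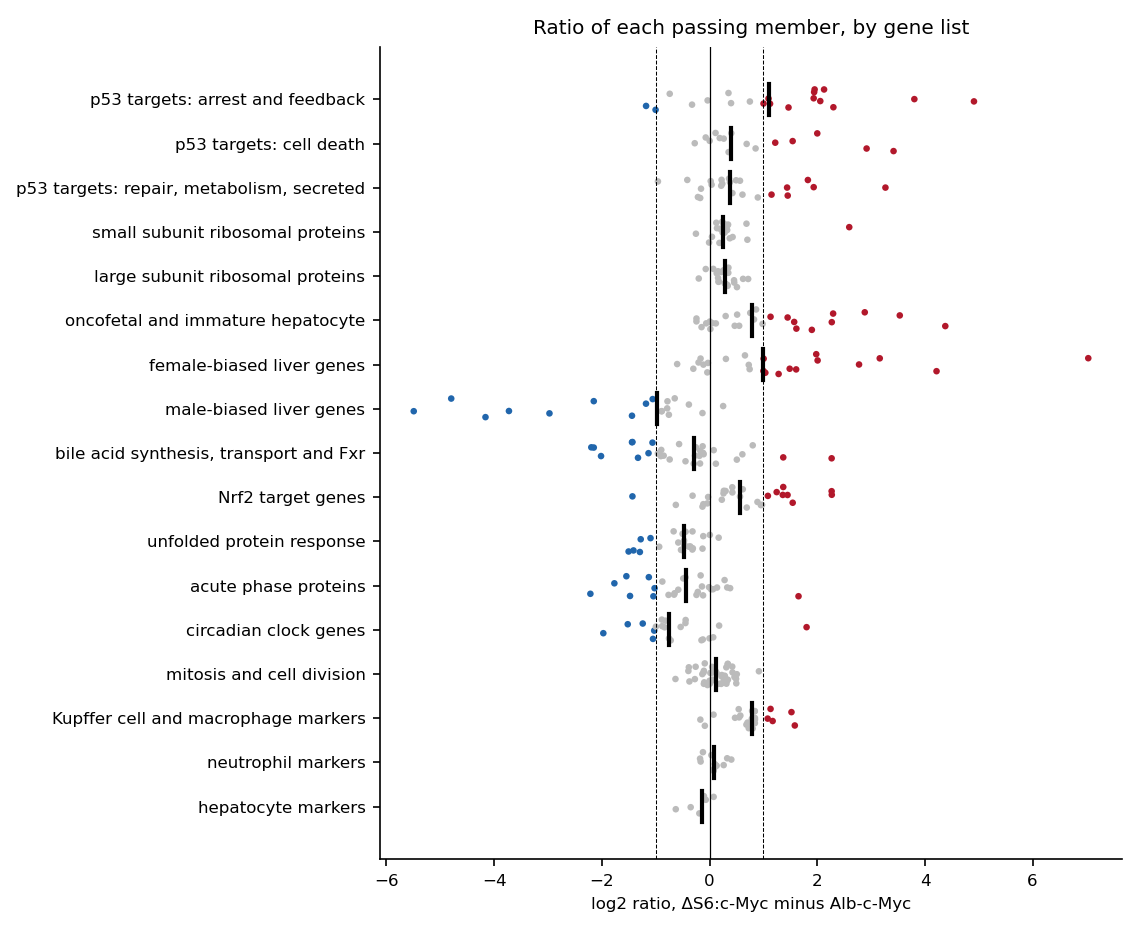
Log2 ratio, ΔS6:c-Myc minus Alb-c-Myc, of each passing member of 17 gene lists (rows); points are genes, red and blue mark 2-fold higher and lower, black bars are list medians and dashed lines mark 2-fold. The p53 lists and the female-biased list reach far to the right, the male-biased list to the left, and mitotic, neutrophil and hepatocyte marker genes stay within 2-fold; the lone red point among small subunit proteins is the discordant Rps6 probe set.

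Genes that differ between male and female mouse liver were split by direction. The sexes differ because growth hormone is secreted in pulses in males and more evenly in females, and the liver reads this pattern through Stat5b, Bcl6 and Cux2. Of 18 male-biased genes, 9 were past 2-fold on the lower side and 0 on the higher side, and the list median was -0.97. Of 23 female-biased genes, 12 were past 2-fold on the higher side and 0 on the lower side, and the list median was 1.00, which came to 0.66 when the probe sets of each gene were averaged. In ΔS6 minus WT the male-biased list was also lower, with 12 past 2-fold and a median of -1.86, whereas the female-biased list had 1 higher and 6 lower with a median of -0.22, against the WT pool that carries Xist. Both transgenic pools had low Xist, which coats the inactive X chromosome (6.29 and 6.33), and similar levels of the Y-linked genes Uty (8.03 and 7.82), Eif2s3y (9.11 and 8.91) and Kdm5d (8.07 and 8.25).

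For 4 leading female-biased genes, Sult2a2, Cyp2b9, Slc22a27 and Hao2, the Alb-c-Myc array was the lowest. Sult2a2 measured 11.39 in WT, 12.95 in ΔS6, 5.28 in Alb-c-Myc liver and 12.31 in ΔS6:c-Myc liver. Cyp2b9, a steroid hydroxylase, measured 11.77, 9.89, 7.89 and 12.10 in the same order. The organic anion transporter Slc22a27 measured 9.07, 9.69, 6.92 and 9.70, and the hydroxyacid oxidase Hao2 10.88, 9.97, 9.09 and 11.09. Smaller differences were seen for Cyp3a44 (1.98), Cyp2b13 (1.49) and the corepressor Trim24 (1.28).

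The leading male-biased genes were low on both arrays of Rps6-deleted liver. Hsd3b5 measured 11.96 in WT, 5.30 in ΔS6, 13.23 in Alb-c-Myc liver and 8.43 in ΔS6:c-Myc liver. Elovl3 measured 11.95, 5.62, 10.51 and 6.79, and the fatty acid hydroxylase Cyp4a12a 13.36, 8.01, 13.80 and 10.82. The bile salt and steroid transporter Slco1a1 had a ratio of -2.15, the oxysterol hydroxylase Cyp7b1 of -1.44 and Cyp2d9 of -1.18. Genes around growth hormone signalling were lower too, with 6 of 25 past 2-fold. They included Igfals, which stabilizes circulating Igf1 (from 11.78 to 9.96), the repressor Bcl6 (from 8.83 to 7.64) and the feedback inhibitor Socs2 (-1.08). Also among them were the Lif receptor Lifr (from 13.20 to 11.17, with probe sets from -2.04 to -0.38) and the urinary protein gene Mup10 (from 12.80 to 11.10). The growth hormone receptor Ghr had -0.61. In the other direction, Igfbp1, a binding protein that rises in fasting and stress, had 1.20.

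Drug-metabolizing genes went both ways. Of 46 cytochrome P450 genes of families 1 to 4, 7 were past 2-fold on the higher side and 6 on the lower side, and the list median was -0.29. Apart from the female-biased Cyp2b9, Cyp2b13 and Cyp3a44, the higher ones were Cyp2c55 (from 7.03 to 10.12), Cyp2c37 (from 8.41 to 11.07), the Car target Cyp2b10 (from 7.27 to 8.88) and Cyp4a31 (1.06). The lower ones were Cyp4a12a, Cyp2d13 (from 11.21 to 8.68), Cyp3a13 (from 11.50 to 9.52), Cyp2u1 (-1.42), Cyp2d9 and Cyp4v3 (-1.13). Of 38 conjugating enzymes, 5 were higher and 5 lower. The glutathione transferases and their microsomal relatives Gstm3 (1.54), Gsta2 (1.45), Mgst3 (1.30) and Mgst2 (1.20) were higher, and Sult2a8 (-1.58), Ugt3a1 (-1.57) and Ugt3a2 (-1.57) were lower.

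Targets of Nrf2, the sensor of oxidative and electrophilic stress, were more often higher. Of 27, 8 were past 2-fold on the higher side and 1 on the lower side, and the list median was 0.57 here and 0.32 in ΔS6 minus WT. Besides Gstm3 and Gsta2 they were the carbonyl reductase Cbr3 (from 6.92 to 9.19), the sulfiredoxin Srxn1 (1.36), heme oxygenase Hmox1 (1.25), the glutathione synthesis subunit Gclc (1.08) and the exporters Abcc4 (from 6.93 to 9.19) and Abcc2 (1.37). The exporter Abcc3 was the lower one (from 11.79 to 10.36).

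Several genes of bile acid synthesis and uptake were lower, while the exporters Abcc4 and Abcc2 were higher and the exporter Abcc3 was lower. Of 31 genes on the bile acid list, 8 were at least 2-fold lower, Abcc3 (-1.43) among them, and 2, Abcc4 and Abcc2, higher. The median was -0.29. Cyp8b1, the sterol hydroxylase that makes cholic acid, went from 13.24 to 11.04, and Nr0b2, the Fxr-induced repressor Shp, went from 11.03 to 9.02. The uptake transporter Slc10a1 (-1.33) and the conjugating enzymes Baat (-1.13) and Slc27a5 (-1.06) were also lower. For Cyp8b1 and Nr0b2 the ratios in ΔS6 minus WT were -0.77 and -0.64.

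Among other functions of the mature hepatocyte, some enzymes of glucose, lipid and amino acid metabolism were lower, and secreted proteins were shifted slightly downward as lists. In glucose metabolism 4 of 28 were past 2-fold on the lower side and 0 on the higher side. They were both parts of the glucose-6-phosphatase system, G6pc (from 12.87 to 11.32) and its transporter Slc37a4 (from 12.97 to 11.65), Aldoc (-1.23) and liver pyruvate kinase Pklr (-1.17). In lipid synthesis 3 of 33 were lower (9.09%, beside 1.74% of all genes). They were Elovl3, Thrsp (from 14.38 to 10.68) and Acacb (-1.49, with its second probe set at 0.10). The sterol genes Lss (0.98), Cyp51 (0.85) and Fdft1 (0.83) lay just under 2-fold higher. In fatty acid oxidation 5 of 35 were higher, led by Pdk4, which blocks glucose oxidation (from 7.15 to 9.47), with the thioesterases Acot2 (1.38) and Acot1 (1.28), and the hormone Fgf21 was lower (-1.14). Of 47 coagulation, complement and serpin genes, 6 were lower, among them Masp1 (-1.61), Serpina11 (-1.53) and factor VII, F7 (-1.14), and 0 were higher, while 6 of the 47 had a ratio above 0 and the median was -0.31. Of 25 genes of apolipoproteins and lipoprotein assembly, 5 were above 0, with a median of -0.17. The mitochondrial aminotransferase Oat (from 11.83 to 13.87) was higher against the lower amino acid enzymes Afmid (-1.46), Prodh (-1.22) and Gldc (-1.07).

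Defining hepatocyte genes were within 2-fold. Alb (15.38 and 15.46), Ttr (15.15 and 15.08), Apoa1 (15.22 and 15.11) and Serpina1c (15.35 and 15.16) differed little, but at such bright levels a change may not show. The other 2 markers were dimmer, with Pck1, of glucose production, at 13.93 and 13.31 and Tat, of tyrosine breakdown, at 13.98 and 13.63. Of the 6 markers, 1 had a ratio above 0. Of 38 hepatocyte transcription factors, 2 were at least 2-fold lower (5.26%, beside 1.74% of all genes). They were Nr0b2 and the clock output factor Dbp (from 12.45 to 11.21). Of the 38, 11 had a ratio above 0 (median -0.27). Of 21 clock genes, 5 were lower, the deubiquitinase Usp2 (from 11.70 to 9.73), Noct (-1.52), Dbp, Per3 (-1.05) and Per2 (-1.03), and 1 was higher, the activator Arntl (from 6.76 to 8.56), whose second probe set was at -0.07. All livers were taken in the late morning.

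Part of the fetal liver and progenitor genes were higher, by less than in liver without the transgene. Of 26 oncofetal and immature hepatocyte genes, 10 were past 2-fold on the higher side and 0 on the lower side, and the list median was 0.79. In ΔS6 minus WT 17 were higher with a median of 2.62. The growth factor Igf2 went from 8.18 to 11.06 (ratio 2.88, and 6.36 without the transgene), while its other probe set had a ratio of 0.51. Alpha-fetoprotein, Afp, went from 6.54 to 8.11 (1.57 and 6.62). Ly6d, a lymphoid and progenitor surface protein, went from 7.51 to 11.04, the desaturase Scd2 from 7.24 to 9.53 and the proteoglycan Gpc3 from 7.12 to 8.57. Of 19 bile duct and progenitor markers, 3 were higher, the progenitor marker Prom1 (from 5.84 to 9.43), the transcription factor Sox4 (from 7.37 to 10.46) and Cd24a (from 7.53 to 8.98). The probe sets of Cd24a ran from 0.345 to 1.45. The defining duct genes Krt19 (7.04 and 7.53), Krt7 (6.55 and 6.77) and Sox9 (6.46 and 6.78) were within 2-fold. The keratins of hepatocytes, Krt8 (1.15) and Krt18 (1.24), and the annexin Anxa2 (from 9.67 to 11.30, with another probe set at -0.03) were higher.

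**Figure D4:**
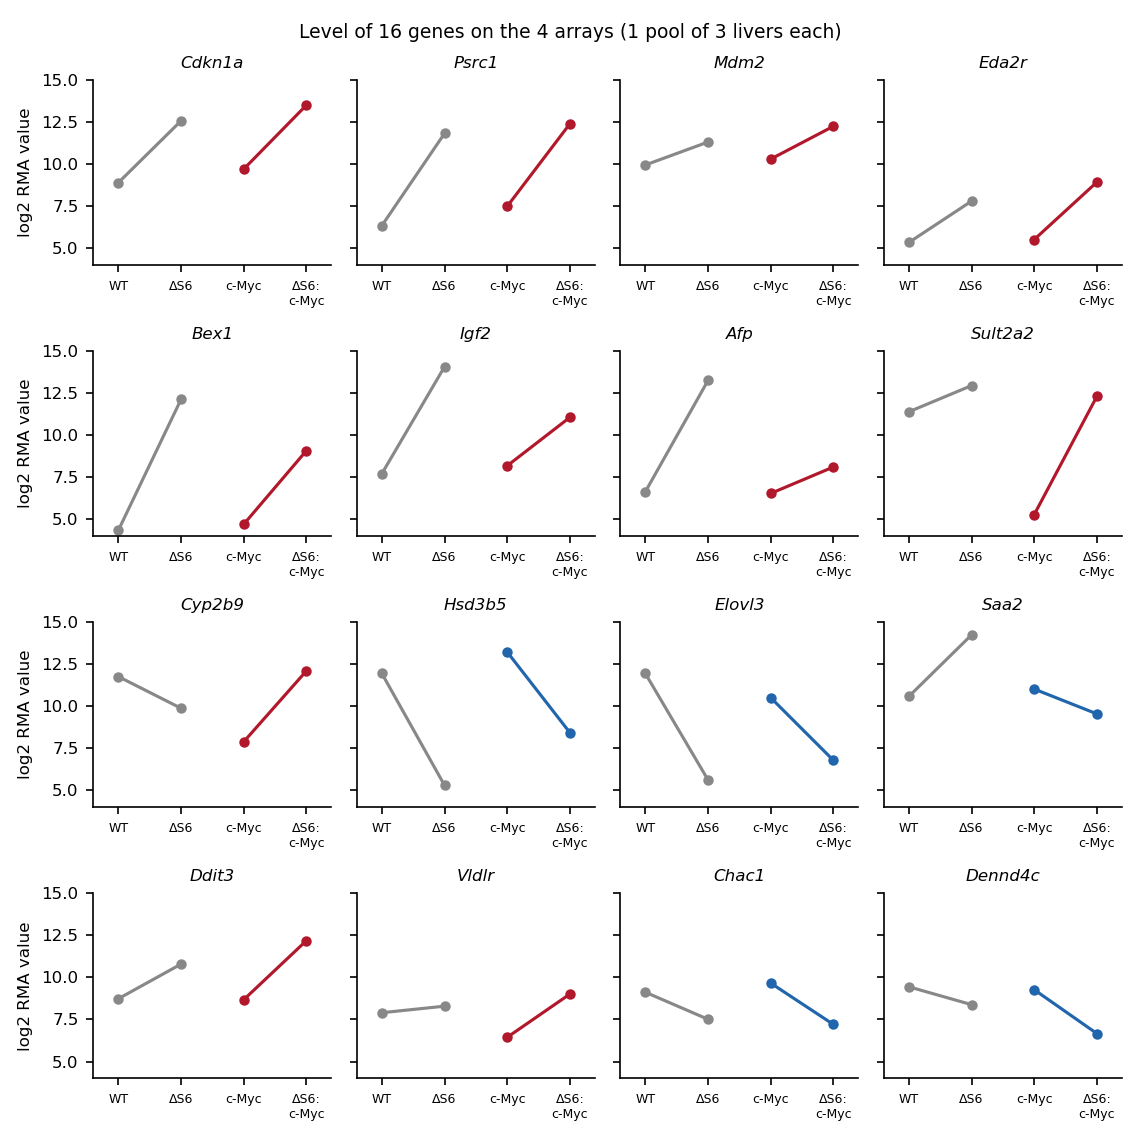
Level of 16 genes as log2 RMA values (vertical axes) by genotype (horizontal axes, 1 pool of 3 livers each); grey joins WT and ΔS6, and colour joins Alb-c-Myc and ΔS6:c-Myc, red where the latter is higher and blue where it is lower. Cdkn1a, Psrc1, Mdm2 and Eda2r climb in both pairs, Bex1, Igf2 and Afp climb less between the transgenic arrays, and Cyp2b9 and Saa2 go in opposite directions in the pairs.

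Stress-response genes did not move as 1 set. Immediate early and AP-1 genes were higher in 9 of 32 cases and lower in 1, with a median of 0.51. The higher ones included Atf3 (from 6.74 to 9.54), Egr1 (from 9.58 to 11.85), Klf6 (from 7.52 to 9.37), Jun (1.31) and Fos (1.11), and the lower one was the phosphatase gene Dusp1 (-1.20). On the Atf4 and amino acid response list, 4 of 33 were higher and 2 lower. The stress factor Ddit3, known as Chop, went from 8.67 to 12.19 (11.4-fold), the lipoprotein receptor Vldlr from 6.44 to 9.01, Atf5 had 1.24 and Sesn2 1.10. Chac1, which degrades glutathione and is a target of the same pathway, went the other way, from 9.66 to 7.20 (ratio -2.46), and its promoter stretch above holds the same letters TTGCATCA as that of Atf3. The amino acid genes Asns (0.75) and Psat1 (-0.79) were within 2-fold.

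Chaperones of the endoplasmic reticulum tended to lower values. Of 24 genes of the unfolded protein response, 5 were past 2-fold on the lower side and 0 on the higher side, 2 had a ratio above 0, and the median was -0.47. The cochaperone Dnajb9 went from 12.51 to 11.01, Sdf2l1 from 11.04 to 9.63, the degradation factor Herpud1 from 13.28 to 11.99 and Creld2 from 10.89 to 9.61. In the cytosol, the stress-inducible Hspa1b went from 11.64 to 9.22, while subunits of the chaperonin such as Tcp1 (0.69) and Cct5 (0.68) were slightly higher.

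Several acute phase genes were lower in liver with the transgene, and some of the same genes were higher without it. These are secreted by hepatocytes in response to inflammatory cytokines. Of 27, 7 were past 2-fold on the lower side and 1 on the higher side (median -0.45), whereas in ΔS6 minus WT 11 were higher and 2 lower (median 0.82). The serum amyloid gene Saa1 went from 12.64 to 10.88 (ratio -1.77, and 2.28 without the transgene), Saa2 went from 11.03 to 9.55 (-1.48 and 3.66) and Orm2 went from 9.07 to 8.05 (-1.02 and 4.45). The glycoprotein Lrg1 (from 13.80 to 12.26) and the pentraxin Crp (-1.13) were lower. Hamp2, a relative of the iron hormone hepcidin, was lower in both comparisons (-2.21 and -2.50), but its second probe set had 0.11 here. The siderophore binder Lcn2 was the higher one (from 8.94 to 10.59). Interferon-stimulated genes were lower in 4 of 40 cases (10.0%, beside 1.74% of all genes) and higher in 0. The lower ones were Ifit1 (from 10.14 to 8.30) and the immunity GTPases Irgm2 (-1.32), Igtp (-1.19) and Iigp1 (-1.07).

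Among other cell types of the liver, macrophage genes were shifted upward and neutrophil genes stayed within 2-fold. Of 24 passing markers of Kupffer cells and macrophages, 22 were above 0 and 5 past 2-fold, with a list median of 0.80 and a summed level that went from 14.35 to 15.15 on the log2 scale. They included the receptors Cd14 (from 7.12 to 8.71) and Marco (from 8.08 to 9.60), lysozyme Lyz2 (from 10.13 to 11.30) and the galectin Lgals3 (1.13), while Cd5l (0.84), Vsig4 (0.84) and C1qa (0.82) had near-equal ratios under 2-fold. MHC class II genes, which these cells also use, were higher in 4 of 11 cases, led by H2-Ab1 (from 8.77 to 10.10) and the invariant chain Cd74 (from 9.76 to 10.82). Their summed level went from 12.78 to 13.57, and the part of the macrophage markers in it was not tested. Of 12 neutrophil markers 0 were past 2-fold, with S100a8 at 7.02 and 7.42, S100a9 at 7.50 and 7.76 and a summed level of 10.31 and 10.42. In ΔS6 minus WT that list had a median of 2.44. T cell and NK cell markers had a median of 0.00, and of 15 endothelial markers only Lyve1 was past 2-fold (from 8.91 to 7.72). Of 15 stellate cell and fibroblast markers, 1 was past 2-fold, the matrix proteoglycan Lum (from 10.13 to 11.27), while 14 had a ratio above 0 and the median was 0.43. Of 36 collagen and matrix genes, 31 were above 0 with a median of 0.19, among them Col1a1 (0.19) and Col3a1 (0.11).

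A minority of NF-κB genes were higher. Of 37, 5 were past 2-fold on the higher side and 0 on the lower side, and the list median was 0.25. They were the adhesion molecules Icam1 (from 8.40 to 10.18) and Vcam1 (from 8.46 to 9.58), the subunit Relb (from 6.52 to 8.21), the chemokine Cxcl10 (from 8.32 to 9.78) and Lcn2. Of 26 chemokines, Cxcl10 and the macrophage product Ccl6 (from 8.53 to 9.92) were the 2 that were higher (7.69%, beside 2.56% of all genes).

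Set beside the deletion without the transgene, most genes past 2-fold were past it in the same direction, and the spread of the ratios was narrower. The comparisons share no array. They also differ in the fall of Rps6 itself, with a median ratio over its 9 shared probe sets of -1.76 with and -0.29 without the transgene. What that adds to the differences below was not tested. Over the same 14065 genes, ΔS6 minus WT had 1192 (8.47%) past 2-fold on the higher side and 454 (3.23%) on the lower, and the SD of the ratios was 0.76 against 0.47. Of the 360 genes higher with the transgene, 238 (66.1%) were also higher without it, which is 20.0% of the 1192. Of the 245 lower genes, 167 (68.2%) were also lower without it, or 36.8% of the 454. The ratios correlated across genes with Pearson's r = 0.64, a description over genes that are not independent replicates. In the overlap were Psrc1, Cdkn1a, Bex1 and Ddit3 on the higher side and Hsd3b5, Serpina4-ps1, Thrsp and Serpina12 on the lower.

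The remaining genes were not past 2-fold in the same direction without the transgene, and whether they differed between the settings was not tested. Within 2-fold without it were 117 of the higher and 71 of the lower genes, some only just, as S100a1 with -1.08 and -0.97. Farther apart were Cyp2c55 (3.08 with and 0.16 without), Vldlr (2.57 and 0.39), Slc22a29 (3.16 and 0.87), Oat (2.04 and -0.20), Cyp8b1 (-2.20 and -0.77), Ifit1 (-1.84 and -0.12) and Lrg1 (-1.54 and 0.36). Past 2-fold in opposite directions were 5 of the higher and 7 of the lower genes, with Cyp2b9, Cyp2c37 and Cyp2b13 among the former and Saa1, Saa2 and Orm2 among the latter. For the P450 genes the WT pool with Xist is 1 side of the opposing ratio.

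**Figure D5:**
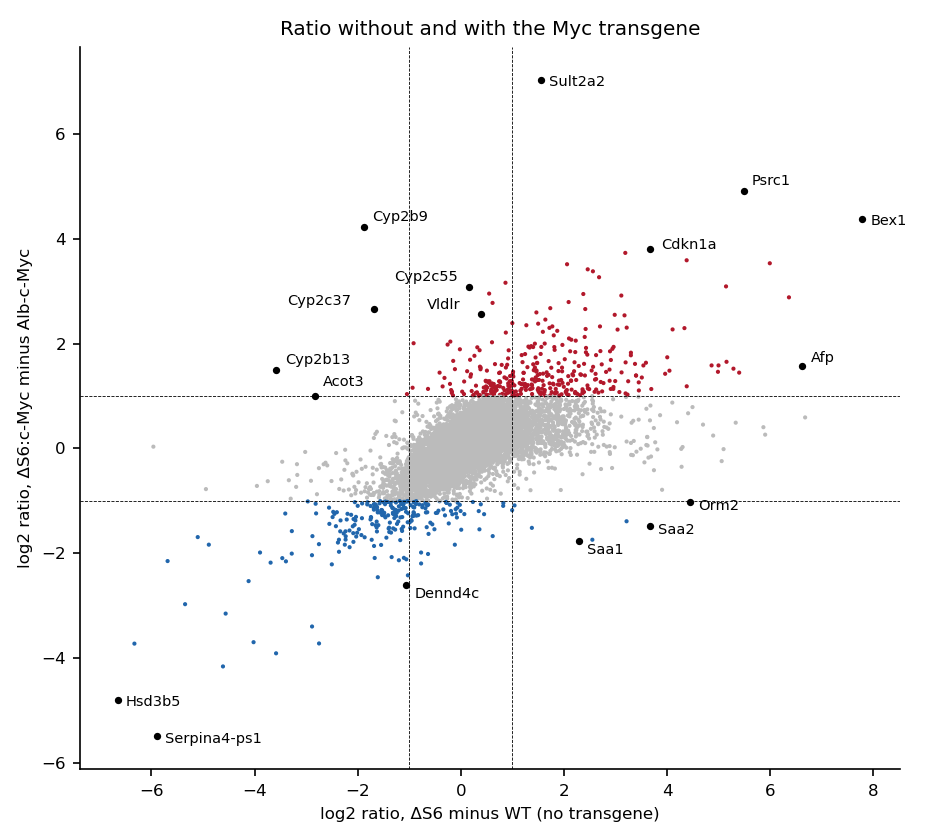
Log2 ratio of each of 14065 genes in ΔS6 minus WT (horizontal axis) and ΔS6:c-Myc minus Alb-c-Myc (vertical axis), 1 array per genotype; red and blue mark genes 2-fold higher and lower on the vertical axis, dashed lines mark 2-fold and black points are labelled genes. Psrc1, Bex1 and Cdkn1a lie high on both axes, Hsd3b5 and Serpina4-ps1 low on both, and Cyp2b9 and Saa2 in the opposing corners.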

How the data were processed

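Liver RNA of 4 genotypes was measured on Affymetrix GeneChips, each holding the pooled RNA of 3 mice of 1 genotype. The values deposited by the authors are log2 values for 45101 probe sets after RMA and quantile normalization. RMA and affy are named in the submitters' processing notes, with versions not given in the sources used here. Having 1 array per genotype limits the precision, and detection calls were not analysed here. Gene names came from the annotation of the platform, where 34958 probe sets have 1 gene symbol, 932 several and 9211 none. The Entrez identifiers of 34754 of the first kind are in the RefSeq gene table, which changed 0 symbols. Each gene was represented by the brightest of its probe sets (mean of all 4 arrays), and passed with a log2 value of 6 or more on either transgenic array. RMA compresses ratios of dim probe sets, so a ratio with a value below 6 on 1 side is uncertain in size.

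Ratios are differences of the log2 values, and 2-fold served as the size threshold. With 1 array per genotype no test was run. Named genes are the 15 highest and 15 lowest ratios, all probe sets of Rps6, Myc and, from each of 58 gene lists, at most 6 members with the largest ratios by size. Where the text names further members, they were chosen after their values were seen. The lists overlap, and members and lists were chosen with earlier results of these data known. The counting step was checked on simulated arrays. Promoter sequences and gene order came from RefSeq (GRCm38.p6), and 11287 of the passing genes had a promoter window. Python 3.11.15, numpy 2.4.6, pandas 2.3.3, statsmodels 0.14.6 and matplotlib 3.10.9 were used. Alternatives were other probe set choices, filters, size thresholds and scalings.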

Additional observations from a re-analysis of the deposited data

Results flagged for a closer look

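Among the named genes, 6 were past 2-fold in opposite directions with and without the transgene, a difference that was not tested with 1 array per genotype. Higher with the deletion in transgenic liver and lower in ΔS6 than in WT were Cyp2b9 (log2 ratios 4.22 and -1.88), Cyp2c37 (2.65 and -1.68) and the thioesterase Acot3 (1.00 and -2.83). The reverse held for Saa1 (-1.77 and 2.28), Saa2 (-1.48 and 3.66) and the keratin Krt23 (-1.09 and 1.04).

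Probe sets annotated to several genes were outside the comparison, and 4 of them were at least 8-fold higher in transgenic liver without Rps6 than with it. The probe set of the imprinted RNA H19 and its product Mir675 went from 6.17 to 13.80 (log2 ratio 7.64, and 9.17 in ΔS6 minus WT). The probe set of the female-biased Cyp3a41a and Cyp3a41b went from 9.10 to 13.58 (4.48), with 13.16 in WT and 12.50 in ΔS6. A probe set of Slc22a29 and Slc22a30 had 3.51, and one of Gsta1, Gsta2 and Gm3776 had 3.10.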

How the results depend on the processing

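The counts of 360 higher and 245 lower genes stayed within 1.5 times under every other probe set choice, filter and scaling tried (265 to 384 higher and 205 to 261 lower), and the size threshold set the rest, with 52 and 28 genes at 4-fold and 15 and 9 at 8-fold. The lowest counts, 265 and 205, came from averaging the probe sets of each gene. Of 347 list medians under the alternatives, 58 moved by over 1.5 times or changed sign, 10 of them in sign, mostly from small medians. Of the 54 with a median of 0.5 or more by size, 0 changed sign and 2 moved by over 1.5 times. By more than 0.24, the spread between probe sets of 1 gene, which is not the error of a median, moved the female-biased list, with 0.66 from averaged probe sets, 0.72 without the suffixes _x_at and _s_at and 0.74 without a filter, and 5 lists with a filter at a log2 value of 8, namely p53 targets of arrest and feedback (1.47), oncofetal genes (1.13), S100 genes (-0.30 against 0.19), MHC class II genes (0.98) and bile duct markers (0.66). For named genes, 563 of 640 values moved by less than 0.24 and 77 by more, and none with a ratio past 2-fold changed sign. Setting the median of all ratios to 0 shifted them by 0.02. Of 78 named genes past 2-fold with several probe sets, 15 had probe sets of opposite sign. No paired analysis was possible because each genotype has 1 array. Dim probe sets limit the size of ratios, since no detection calls were analysed here.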

Other observations

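Histone mRNAs formed a further group, chosen after their values were seen. Of 24 passing probe sets of replication-dependent histone genes, 12 carry 1 gene symbol and the others several. At least 2-fold higher on the ΔS6:c-Myc array than on the Alb-c-Myc array were 9 of the 24, and 0 were lower (median log2 ratio 0.85). Among all passing genes, 2.56% were higher by that size. Several of the 9 carry the same or overlapping symbols, so they do not stand for 9 separate genes. In ΔS6 minus WT the median was 0.23, with 6 at least 2-fold higher. A probe set shared by 13 H4 symbols went from 9.17 to 11.75 (ratio 2.59), one shared by H3 genes from 6.01 to 8.62 (2.61) and the 3 probe sets of the linker histone H1f2 had 2.25, 1.84 and 0.12. For H2bc21 both probe sets were lower, at -0.70 and -0.67. Mitotic genes on the same arrays had a median of 0.12.

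Some other probe sets annotated to several genes, also chosen after their values were seen, match interferon-inducible genes. A probe set of Ifi204, Ifi205, Ifi211 and Mndal went from 5.62 to 7.42 (ratio 1.79), whereas a probe set of Ifi202b and LOC100044068 went from 6.81 to 5.54 (-1.27). The probe set shared by Apol9a and Apol9b went from 11.73 to 9.87 (-1.86).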
